A study of Mus musculus with 15 samples.

Results

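Recurrent intergenic H3K4me3 regions were the stretches of the mouse liver genome, away from every annotated transcript, at which an island of enrichment was called again and again in separate livers. The islands of 15 livers were merged where they overlapped or touched, which gave 74158 merged regions from 254682 islands. A merged region was kept when 6 or more of the 15 lists had an island in it, when it overlapped no GENCODE transcript of the mm10 genome, when no transcription start site (TSS) lay within 1 kb, and when fewer than 5 lists held an island of 4000 bp or more in it. This left 1744 of the 74158 merged regions, out of 44000 that were intergenic and 12041 that had an island in 6 or more lists. The regions were selected on the number of lists with an island and on island width, so how often they were marked and how wide they were is a description and not a test. A region near the bound of 6 lists may have reached it only through the mice of 1 diet. Tests of a diet against the others are therefore not independent of the selection.

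The islands came from PAT-ChIP-seq, a chromatin immunoprecipitation made from formalin-fixed, paraffin-embedded tissue, here whole liver with an antibody to H3K4me3. There were 15 libraries, 1 per C57BL/6 mouse (C57BL/6J in the study's methods), all female, and 3 mice were on each of 5 diets. The diets were the standard diet (SD), calorie restriction with a limited daily amount of the standard chow (CR), a high-fat diet (HF), a diet with powder of yellow corn (YD) and one with powder of purple corn, which is rich in anthocyanins (RD). All but CR were eaten freely. Feeding began at 3 months of age and lasted 10 months, and age was labelled as 12 months for all 15 mice. The liver is a mixture of cell types, and a region marked in fewer cells cannot be told apart from a region marked more weakly in each cell.

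H3K4me3 is a methyl mark that is laid down on the nucleosomes around active and poised promoters, above all where unmethylated CpG-rich DNA recruits the writing enzymes. Outside genes it is known at promoters that an annotation lacks, at some strong enhancers and at transfer RNA (tRNA) genes, which RNA polymerase III transcribes from promoter elements inside the gene. Reads from repeats that the assembly holds in too few copies can also pile up at one place in any sequencing library.

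The lists held 7825 islands in YD mouse 1 to 33752 in CR mouse 3, and RD mouse 2 had the second longest list, 32131. No pair of lists was the same, and at most 2.79% of the shorter list's islands had the same start and end in another list. Hepatocyte promoters were marked throughout: 5 to 9 of the 9 hepatocyte marker genes found in the annotation had an island at a TSS in each library, while none of the 5 skeletal muscle and none of the 5 neuron markers did in any. Markers of other liver cells were rarer, and their highest counts were in HF livers. Of 5 Kupffer cell markers 3, 0 and 1 were marked in the HF mice and 0 or 1 in every other mouse, with Vsig4 and Csf1r at 0 in all. Of 5 sinusoidal endothelial markers 5, 2 and 3 were marked in HF mice and 0 to 3 in others. Of 5 stellate markers 2, 0 and 2 were marked in HF mice and 0 or 1 in others, with Col1a1 at 0 in all. The part of these cells in the results was not tested.

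Sequences are shown first for the 3 kinds of region that a reader has to tell apart. All are printed 5′ to 3′ from the mm10 reference. The first set holds 3 tRNA genes from the tRNA regions marked in the most libraries, on the strand of the gene, with the letters GGTTCGA in capitals. These are a part of the B box, the internal promoter element that is read by the polymerase III factor TFIIIC, and the motif was chosen after the regions had been seen. It stood in 45 of the 58 tRNA genes inside these regions and in 243 of all 403 RefSeq tRNA genes, on either strand.
n-THgtg4 (tRNA-His, chr2:122375494-122375565, minus strand): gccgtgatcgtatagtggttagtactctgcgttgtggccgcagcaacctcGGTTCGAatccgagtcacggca
n-TKctt17 (tRNA-Lys, chr12:70969120-70969192, minus strand): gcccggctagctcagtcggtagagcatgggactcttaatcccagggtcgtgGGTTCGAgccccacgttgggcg
n-TKctt28 (tRNA-Lys, chr13:21168075-21168147, minus strand): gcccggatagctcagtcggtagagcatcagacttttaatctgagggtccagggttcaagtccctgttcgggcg
The pair of tRNA-Lys genes were identical in 61 of 74 aligned columns, and n-TKctt28 did not hold the exact letters.

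The second set is the centre of 3 regions with CpG-rich sequence, on the plus strand and with every CpG in capitals.
Region near Gm6020 (chr19:61199701-61199900): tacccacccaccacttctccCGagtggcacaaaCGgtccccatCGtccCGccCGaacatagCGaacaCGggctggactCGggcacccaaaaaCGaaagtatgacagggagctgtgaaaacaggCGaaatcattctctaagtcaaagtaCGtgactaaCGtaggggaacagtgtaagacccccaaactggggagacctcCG
Region near CR555305.2 (chr19:61266801-61267000): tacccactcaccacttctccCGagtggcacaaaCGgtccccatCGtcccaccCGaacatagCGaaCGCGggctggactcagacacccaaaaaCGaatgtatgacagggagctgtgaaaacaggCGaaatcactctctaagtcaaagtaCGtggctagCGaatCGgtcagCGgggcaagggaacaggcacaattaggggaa
Region near Gm2651 (chr6:3201401-3201600): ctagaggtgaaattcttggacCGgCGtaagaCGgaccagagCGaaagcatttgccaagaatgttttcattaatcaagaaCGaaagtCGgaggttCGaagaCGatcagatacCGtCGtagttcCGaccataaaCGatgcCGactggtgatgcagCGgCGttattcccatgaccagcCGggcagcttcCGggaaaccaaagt
The chromosome 19 sequences lie near the same end of that chromosome and aligned over 159 columns with 94.3% identical bases. The Gm2651 sequence aligned along all its 200 bases to Rn18s-rs5, an 18S ribosomal RNA related sequence at chr17:39846354-39848202, with 96.0% identical bases.

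The third set is the centre of the 3 regions with the highest score ranks among those marked in all 15 livers, followed by a pair of regions near the median of the AT-rich majority. CpGs are again in capitals. In the first 3 the ratio of observed to expected CpG in the central 300 bp was 0.0986, 0.896 and 0.558, at a GC content of 39%, 34% and 39.3%.
Region near Gm28502 (chr15:75086226-75086375): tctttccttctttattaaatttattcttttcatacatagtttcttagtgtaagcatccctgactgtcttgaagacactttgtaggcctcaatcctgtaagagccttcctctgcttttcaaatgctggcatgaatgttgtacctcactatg
Region near Gm10800 (chr2:98665026-98665175): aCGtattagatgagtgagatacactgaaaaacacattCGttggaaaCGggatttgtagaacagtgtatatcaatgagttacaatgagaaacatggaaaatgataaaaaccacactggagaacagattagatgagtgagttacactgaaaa
Region near Gm39473 (chr12:74804126-74804275): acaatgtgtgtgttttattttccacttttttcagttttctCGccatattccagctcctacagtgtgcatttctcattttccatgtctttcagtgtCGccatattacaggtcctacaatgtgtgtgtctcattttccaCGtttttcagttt
Median region on chromosome 6 (chr6:89721001-89721200): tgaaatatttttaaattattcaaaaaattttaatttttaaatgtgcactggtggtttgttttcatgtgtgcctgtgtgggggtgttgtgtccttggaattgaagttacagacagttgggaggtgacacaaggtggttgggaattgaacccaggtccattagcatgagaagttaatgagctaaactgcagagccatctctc
Median region on chromosome 9 (chr9:20422701-20422900): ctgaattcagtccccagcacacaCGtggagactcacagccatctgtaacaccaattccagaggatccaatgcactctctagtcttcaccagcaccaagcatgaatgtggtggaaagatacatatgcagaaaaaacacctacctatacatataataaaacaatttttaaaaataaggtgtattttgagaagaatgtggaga

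Most of the 1744 regions were unlike CpG-rich promoters in base composition. The 300 bp at the centre of the stretch covered in the most lists had a median GC content of 40% and a median ratio of observed to expected CpG of 0.132, and 36.3% of its bases were repeat-masked. The other 10297 recurrent regions, of which most touch a TSS, had a median GC of 56.7%, a CpG ratio of 0.617 and 6.67% repeat. Intergenic regions with an island in 2 to 5 lists were close to the members, with 36.7%, 0.105 and 29.3%. Of the 1744 centres 48 had a GC content over 50% with a CpG ratio over 0.6, a usual bound for a CpG island, against 4804 of the 10297 others.

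The regions were split into 4 classes by what else the RefSeq annotation and the sequence show there. The classes were drawn up after the regions had been examined. There were 29 regions with a tRNA gene, 170 with some other RefSeq transcript that GENCODE lacks, 21 with a CpG-rich centre and neither of those, and 1524 with none of these, 87.4% of all. The median CpG ratio was 0.743 in the tRNA regions, 0.155 in the RefSeq regions, 0.756 in the CpG-rich regions, where the ratio was part of the choice, and 0.125 in the remaining 1524.

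**Figure D1:**
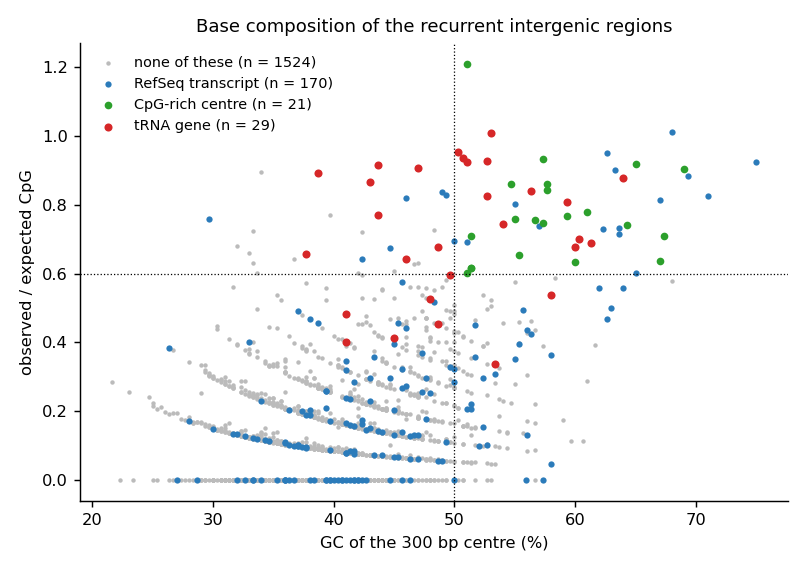
Each point is a recurrent intergenic region, with the GC content (%) of its central 300 bp on the x axis and the ratio of observed to expected CpG on the y axis, and colours give the class. Dotted lines mark 50% GC and a ratio of 0.6. The 1524 regions of no class sit low and to the left, while the 29 tRNA regions lie higher, with a median ratio of 0.743.

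Exact matches to promoter motifs were counted on either strand in the same 300 bp. The SP site GGGCGG stood in 3.44% of the member centres, 32.1% of the other recurrent centres and 35.7% of 32851 RefSeq promoters of the same length. By class it stood in 8 of 29 tRNA, 19 of 170 RefSeq and 10 of 21 CpG-rich centres, and in 23 of the 1524 rest, 1.51%. The classes were split in part on the CpG content of the same bases, so counts by class of a motif with a CpG in it are not independent of that split. The ETS site CCGGAAG stood in 1.49% of members, 7.51% of other recurrent centres and 8.86% of promoters. AT-rich letters went the other way. The TATA box TATAAA stood in 26.0% of members, 9.26% of other recurrent centres and 13.6% of promoters, and in 35.6% of intergenic centres in 2 to 5 lists. CCAAT stood in 45.5%, 26.9% and 37.4%, and in 44.7% of intergenic centres in 2 to 5 lists. Letters of liver factors were rare throughout: the HNF4 site CAAAGTCCA stood in 0.401%, 0.408% and 0.475%, the FOXA site TGTTTAC in 4.13%, 2.86% and 3.65%, and the CEBP site TTGCGCAA in 0.0573%, 0.126% and 0.183%. The cAMP response element TGACGTCA stood in 0.172%, 0.825% and 1.79%, the NRF1 core GCGCATGCG in 0.115%, 0.641% and 1.75%, and the CTCF core AGGTGGCAG in 0.516%, 0.835% and 0.782%. In intergenic centres in 2 to 5 lists SP stood in 1.3%, ETS in 0.433%, HNF4 in 0.322% and FOXA in 5.54%. No motif of the set is contained in another. A match is only a string of letters in a window and none of these matches is a shown binding site.

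The tRNA regions were marked in all HF livers and in few YD livers. The 29 regions held 58 tRNA genes, 16 of them with a single gene and up to 5 in one region. Of 403 RefSeq tRNA genes on these chromosomes 182 had an island in some list, 98 in 6 or more lists and none in all 15. Leucine tRNA genes were the most frequent isotype in the regions, 10 of 25 in the genome, followed by glycine with 6 of 28, lysine with 6 of 26 and glutamate with 5 of 20. Arginine had 1 of 24 and alanine 2 of 33. These totals count all 403 genes, of which 262 lay outside GENCODE transcripts and over 1 kb from a TSS, where a member can lie. How the 262 divide among isotypes was not counted. Chromosome 13 alone held 9 of the 29 regions, 3 of them with Trim27 as the nearest gene. The median distance from a tRNA region to a TSS was 7.62 kb.

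In HF mice 29, 28 and 28 of the 29 tRNA regions had an island, 28.3 ± 0.577 (SD, n = 3). In YD mice 5, 8 and 4 did, 5.67 ± 2.08 (SD, n = 3). The SD mice had 28, 22 and 14, the CR mice 9, 21 and 26, and the RD mice 14, 20 and 9. All 3 YD mice lay below the 12 others, whose lowest value was 9. The HF mice stood at the top of the range but tied with SD mouse 1 at 28. 28 of the 29 regions had an island in 3 of 3 HF mice, and 17 had one in no YD mouse. The exception in HF was the region with the threonine gene n-TTcgt2 on chromosome 13, with islands in 1 HF mouse and 3 RD mice.

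**Figure D2:**
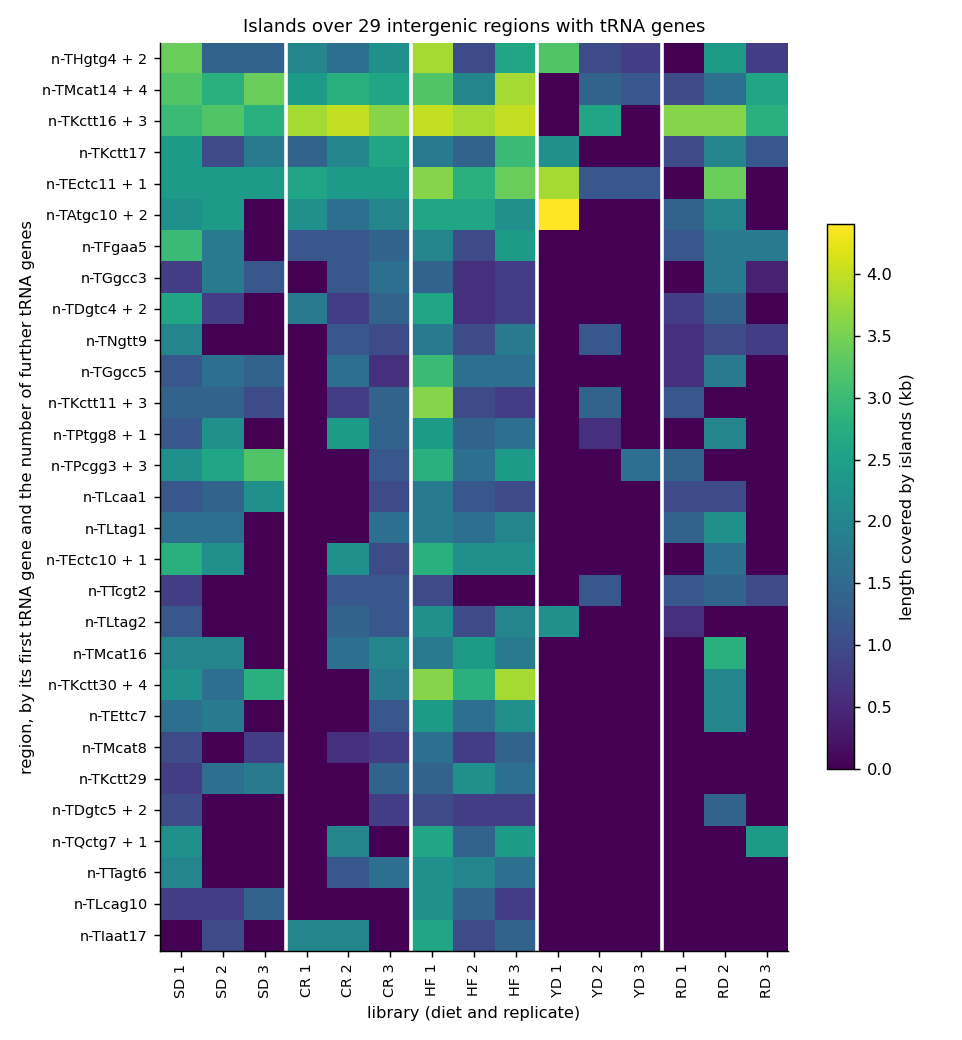
Rows are the 29 recurrent intergenic regions with tRNA genes, named by the first gene and the number of further genes, from most to fewest lists, and columns are the 15 libraries by diet. Colour is the length covered by islands in kb, with the darkest colour for no island. The 3 HF columns are filled in nearly every row, and the 3 YD columns are mostly empty.

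Single regions showed the pattern in covered length, the bp of a region covered by islands in one library. The region chr3:96499401-96503800, with genes for lysine, histidine, glycine and glutamate tRNAs, was covered over 3000, 3200 and 2800 bp in SD mice, 3800, 4000 and 3600 bp in CR mice and 4000, 3800 and 4000 bp in HF mice. In RD mice it was 3600, 3600 and 2800 bp. In YD mice it was 0, 2600 and 0 bp. The YD mice were the lowest 3 of the 15, and the difference of YD from the mean of the other 12 mice was -2650 bp (two-sided exact permutation test p = 0.0022, adjusted p = 0.184).

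The region chr19:12009601-12013600 holds 5 genes, for lysine, leucine, arginine and a pair of valine tRNAs. It was covered over 3600, 2800 and 3800 bp in HF mice, 2200, 1600 and 2800 bp in SD mice, 0, 0 and 1800 bp in CR mice, 0 bp in every YD mouse and 0, 2000 and 0 bp in RD mice. HF and SD overlapped by the tie at 2800 bp, and HF was 2533 bp above the mean of the others (exact permutation p = 0.0044, adjusted p = 0.107). By contrast the histidine gene cluster at chr2:122373801-122379000 had an island in 14 lists and in all YD mice, with 3200, 1000 and 800 bp in YD and 3800, 1000 and 2600 bp in HF. The leucine, lysine and methionine genes at chr13:21166601-21170600 were covered over 3200, 2800 and 3400 bp in SD, 2400, 2800 and 2600 bp in CR, 3200, 2000 and 3800 bp in HF, 0, 1400 and 1200 bp in YD and 1000, 1600 and 2600 bp in RD. YD and RD overlapped there.

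Each of the 12041 recurrent regions was tested for the covered length of one diet against the other 12 mice. In HF 12 of the 29 tRNA regions were higher at an exact permutation p under 0.05, where 27.1% of all tested regions were higher in HF. These 12 had islands in all 3 HF mice, and apart from the one near Hes7 they were in 6 to 8 lists. Those in 6 to 8 lists reached the bound of 6 lists only with their HF islands, so their p is not independent of the selection. In YD 5 of the 29 were lower, where 16.7% of all tested regions were lower in YD. The median difference over the 29 tRNA regions was 1100 bp in HF and -967 bp in YD. Over all tested regions the median differences were 867 bp in HF and -950 bp in YD. No region passed Benjamini-Hochberg adjustment at 0.05 in any diet.

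Across livers the tRNA regions followed the other recurrent regions, most of which hold a TSS. The share of the other 10297 recurrent regions with an island was 97.4%, 96.0% and 89.9% in HF mice, 51.1%, 55.4% and 38.9% in YD mice and 59.2% to 96.4% in the rest. Over the 15 libraries this share and the share of tRNA regions had a Pearson r of 0.944 and a Spearman rho of 0.926, with r = 0.933 without HF mouse 1 and YD mouse 3. The points share libraries and their depth, and the correlation is given as a description. The highest counts of the Kupffer, endothelial and stellate markers given above were in HF mouse 1, with HF mouse 3 also at the top for stellate markers, while HF mouse 2 was not above all other livers for any of them. Their part in this was not tested. Over all 403 tRNA genes 161, 96 and 144 had an island in HF mice, 110, 83 and 65 in SD mice, 53, 78 and 89 in CR mice, 44, 75 and 25 in RD mice and 36, 21 and 4 in YD mice. Over this wider set SD mouse 1 lay above HF mouse 2, and RD mouse 3 lay below YD mouse 1, so both diets overlapped others.

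With the same number of top-scoring islands from every list, 7825, the 29 tRNA regions were marked 22, 11 and 15 times in HF, 17, 13 and 12 in SD, 7, 10 and 5 in CR, 5, 5 and 4 in YD and 9, 2 and 5 in RD. HF and SD then overlapped, and so did YD, CR and RD.

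The 21 CpG-rich regions were also marked the most in HF and the least in YD livers. An island was present in 17, 19 and 18 of them in HF mice, 14, 18 and 18 in CR mice, 16, 16 and 10 in SD mice, 14, 14 and 7 in RD mice and 7, 7 and 8 in YD mice. HF overlapped CR, and YD overlapped RD by RD mouse 3. Of the 21 regions 5 were higher in HF at an exact permutation p under 0.05, where 27.1% of all tested regions were, and 2 were lower in YD, where 16.7% were.

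Some regions of this class stood near known genes. The one at chr17:57274401-57277400 lay 1.70 kb from the TSS of Vav1, a guanine nucleotide exchange factor of blood cells. It was covered over 2200, 2400 and 2200 bp in SD, 0, 2600 and 2200 bp in CR, 2400, 2400 and 2600 bp in HF, 1400, 1600 and 0 bp in RD and 0 bp in all YD mice. The one at chr1:86486601-86490000, 36.7 kb from Ptma, the prothymosin alpha gene, had an island in 14 lists, all but RD mouse 3. Its covered length was 800 to 1800 bp in YD mice and 1600 to 3000 bp in HF mice. The Gm2651 region, whose 18S-related sequence is shown above, was covered over 200 to 1400 bp in 14 libraries and over 5600 bp in RD mouse 2.

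A further 170 regions overlapped a transcript that RefSeq has and GENCODE M21 has not. Of these 114 touched a long noncoding RNA, 35 an mRNA and 24 a pseudogene, and 63 held a RefSeq TSS. The examples that follow were chosen after their values had been seen. In these examples, which gene a RefSeq TSS inside a region belongs to was not resolved. The region chr8:69714801-69717600 holds a RefSeq TSS and overlaps RefSeq transcripts of Zfp869, a zinc finger gene, and of the long noncoding RNA Gm51532. It lies 4.08 kb from the nearest GENCODE TSS. Its centre had 67% GC and a CpG ratio of 0.815. It was marked in all 15 livers over 800 to 2600 bp, with 2600, 2400 and 2400 bp in HF and 2000, 800 and 1000 bp in YD.

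The region chr4:49477801-49482400 holds a RefSeq TSS and overlaps RefSeq transcripts of Acnat1 and of the long noncoding RNA Gm33009. Acnat1 is an enzyme that joins acyl groups to amino acids such as taurine. The region had islands in 13 lists, with 2600, 2400 and 4400 bp in SD, 1600, 3400 and 4000 bp in CR, 4200, 2800 and 1200 bp in HF, 3200, 3200 and 0 bp in YD and 2800, 0 and 1200 bp in RD. All diets overlapped. The region chr11:69414801-69420600 holds a RefSeq TSS and overlaps RefSeq transcripts of Kdm6b, a histone H3K27 demethylase, and of the long noncoding RNA Gm51903. It was covered over 4400, 4000 and 3200 bp in HF, 1600, 4200 and 0 bp in SD, 2200, 1200 and 2800 bp in CR and 0, 2400 and 0 bp in RD, and it had no island in any YD mouse. The region chr19:39369601-39376600 overlaps Cyp2c39, a cytochrome P450 gene, without a TSS in it. It was covered in 7 lists, among them 3 of 3 CR mice over 1800, 2400 and 2600 bp, and it had no island in YD mice.

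The regions marked in the most livers were a small and separate group. An island was present in 6 lists in 537 members, 30.8%, in 7 lists in 393 and in 8 lists in 277. In all 163 members were marked in 12 or more lists, and 38 in all 15. Just outside the bound, 996 intergenic regions had an island in 5 lists. They had a median GC of 38.2% and a median of 35.5 kb to a TSS, against 38.7% and 33.0 kb for the 537 members just inside. At the bound on width, 33 members had 4 wide islands and 18 intergenic regions with 5 were left out, of 55 left out in all.

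Score ranks set apart the 38 regions in all lists. The score was compared only within a list, as the percentile of an island among the islands of that list. The median member stood at the 46.0 percentile, and 60.5% of members were under the 50th. In all 23 members had a median percentile of 90 or more, and 19 of these were among the 38. Of the 6 with the highest ranks 3 had nearly the same covered length in every liver. The region chr15:75085001-75087200, 5.91 kb from Gm28502, was covered over 1800 bp in 13 livers, 2000 bp in SD mouse 3 and 2200 bp in YD mouse 2. Its score lay between the 99.8 and 99.9 percentile in every list. The region chr2:98664801-98665400 near Gm10800 was covered over 600 bp in every liver. The region chrX:143482801-143483200, 35.4 kb from Pak3, was covered over 400 bp in every liver. The 1000 bp centre of the Gm10800 region equalled itself shifted by 120 bp at 42.3% of bases. At the best shift this was 37.2% for the Gm28502 region and 30.7% for the Pak3 region, against a median of 31.5% over members. The 1000 bp window is wider than the Gm10800 and Pak3 regions, so their values take in flanking bases. In the Gm10800 sequence printed above the letters attagatgagtgag recur 120 bp further on. The diets overlapped at each of these 3 regions.

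The other 3 of the top 6 varied in width. The region chr12:74801801-74805800 near Gm39473, 372 kb from the potassium channel gene Kcnh5, was covered over 800 to 2800 bp. Its 1000 bp centre equalled itself shifted by 58 bp at 49.5% of bases, where the median over members was 31.5% at the best shift. The region chr9:24540801-24542400 near Gm47772, 37.7 kb from Dpy19l1, was covered over 400 to 1400 bp. The region chr9:124256201-124259000 near Gm39469 was covered over 1800 to 2800 bp, matched itself at 81.1% of bases at a shift of 31 bp, and lay 7.36 kb from a gap in the assembly. Such tandem repetition meant 60% or more equal bases in the 1000 bp centre at a shift of 20 to 300 bp. It was found in 2 of the 38 regions in all lists and in 7 regions in 12 to 14 lists, 5.6%. It was also found in 6 of 1044 in 7 to 11 lists and in none of 537 in 6 lists. In the other recurrent regions it was found in 83 of 10297, 0.806%. A repeat shorter than the window, or one broken by gaps, can fall below this bound. The Gm10800 and Gm39473 regions, at 42.3% and 49.5%, were not counted, though their sequences printed above hold repeated letters.

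Assembly gaps of 1 kb or more were near the same group. Of the 38 regions in all lists 10 lay within 100 kb of a gap, against 64 of all 1744 members, 3.67%. Most members were mappable with the 50 bp reads. All 50-mers of the centre were unique in the genome in 1111 members, 63.7%, and in 53 members most of them were not. No member held a 50-mer of the mitochondrial genome. An input library was not analysed here, and the part of repeats in these islands was not tested.

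The regions lay at middling distances from genes. The median distance from a region's edge to the nearest TSS of any gene was 27.6 kb, with quartiles of 11.9 and 62.8 kb. For intergenic regions in 2 to 5 lists it was 43.8 kb, and for those in 1 list 44.5 kb. A TSS was under 5 kb away in 175 members and in 1024 regions of 2 to 5 lists, and the share over 50 kb was 30.4% and 46.0%. To the nearest protein-coding TSS the median was 137 kb in members and 360 kb in regions of 2 to 5 lists. Members in 12 or more lists were nearer, with a median of 15.1 kb to any TSS and 42.0 kb to a coding one. All these sets were left after genes and their 1 kb flanks had been removed, so no distance could be shorter than that.

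**Figure D3:**
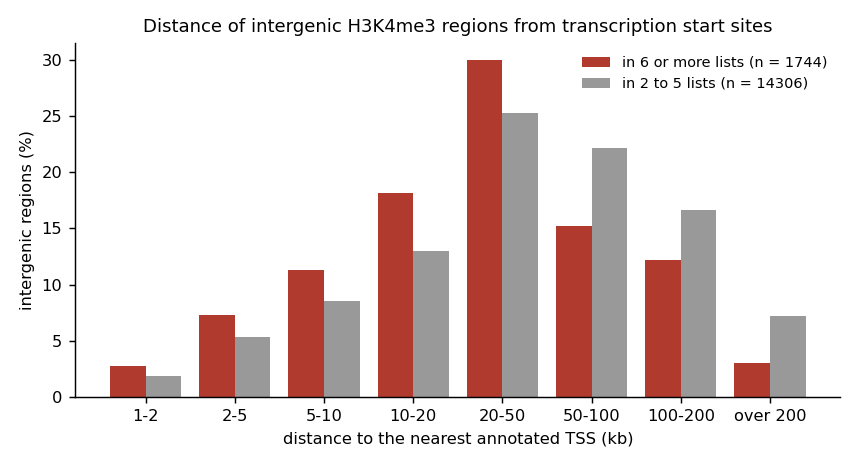
Bars give the percent of intergenic regions by distance to the nearest annotated TSS in kb, in red for the 1744 regions in 6 or more lists and in grey for the 14306 in 2 to 5 lists. The bin of 20 to 50 kb is the highest for both, with 30.0% and 25.3%, and beyond 50 kb the grey bars are the higher ones.

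The gene next to a region was most often a pseudogene. A processed pseudogene was nearest in 664 regions, 38.1%, a protein-coding gene in 406, 23.3%, and a lincRNA in 227. In regions of 2 to 5 lists a processed pseudogene was nearest in 47.9% and a protein-coding gene in 13.1%. The nearest protein-coding promoter had an island in no list for 618 regions, 35.4%, and in 12 or more lists for 395, 22.6%. Over all 21728 protein-coding genes 40.0% had an island in no list and 26.2% in 12 or more.

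Listed liver genes were rare neighbours of members and of regions in 2 to 5 lists alike. Each liver list holds only 25 genes, where the annotation has 21728 protein-coding genes. None of the 25 hepatocyte secreted and carrier genes listed, of which 24 were in the annotation, was the nearest coding gene of a member, and none of 25 hepatocyte metabolism genes was. Of 25 liver transcription factors 2 were, Prox1, a homeobox factor of hepatocytes, and Xbp1, a factor of the unfolded protein response. The 3 lists were nearest in 0%, 0% and 0.115% of members and in 0.0559%, 0.028% and 0.0419% of regions in 2 to 5 lists. Olfactory receptors were the nearest coding gene for 38 members, 2.18%, and vomeronasal receptors for 46, 2.64%, against 1.98% and 1.92% of regions in 2 to 5 lists. The receptor lists are longer, with 1134 and 330 genes.

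The most remote regions were far from any transcript. The farthest lay at chr1:114645201-114654800, 564 kb from the nearest transcript, with the pseudogene Gm4854 as the nearest gene and Cntnap5a, a neuronal adhesion gene, as the nearest coding gene at 1030 kb. It was marked in 7 livers, among them SD mouse 1, CR mice 2 and 3, HF mice 2 and 3, YD mouse 1 and RD mouse 2, over 1000 to 5400 bp. The region chr6:20307401-20313200, 518 kb from a transcript and 902 kb from the potassium channel gene Kcnd2, was marked in 10 livers over 1000 to 3800 bp, in 0 of 3 HF mice and in all RD and CR mice. The region chr1:145910801-145915800, 504 kb from a transcript and 579 kb from Brinp3, was marked in 7 livers over 1800 to 4600 bp, none of them YD. In all, 53 regions lay more than 200 kb from a TSS.

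Along the chromosomes the regions were unevenly spread. Chromosome 3 had 11.51 regions per 10 Mb of sequence, chromosome 17 had 10.9, chromosome 1 had 10.5 and chromosome 4 had 10.4. Chromosome 19 had 1.89, the fewest, with 11 regions, 2 of them with tRNA genes. The other recurrent regions had another order, with 59.96 per 10 Mb on chromosome 19, 65.8 on chromosome 11 and 31.7 on chromosome 3. Intergenic regions in 2 to 5 lists shared much of the members' order. They had 95.67 per 10 Mb on chromosome 1, 92.52 on 3, 85.43 on 4 and 11.68, the fewest, on 19. Chromosome 14 differed, with 80.78 of these against 5.85 members per 10 Mb. On chromosome X there were 4.16 members and 12.5 other recurrent regions per 10 Mb. The share of regions marked in a library, averaged over libraries, was 48.6% to 61.2% by chromosome.

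**Figure D4:**
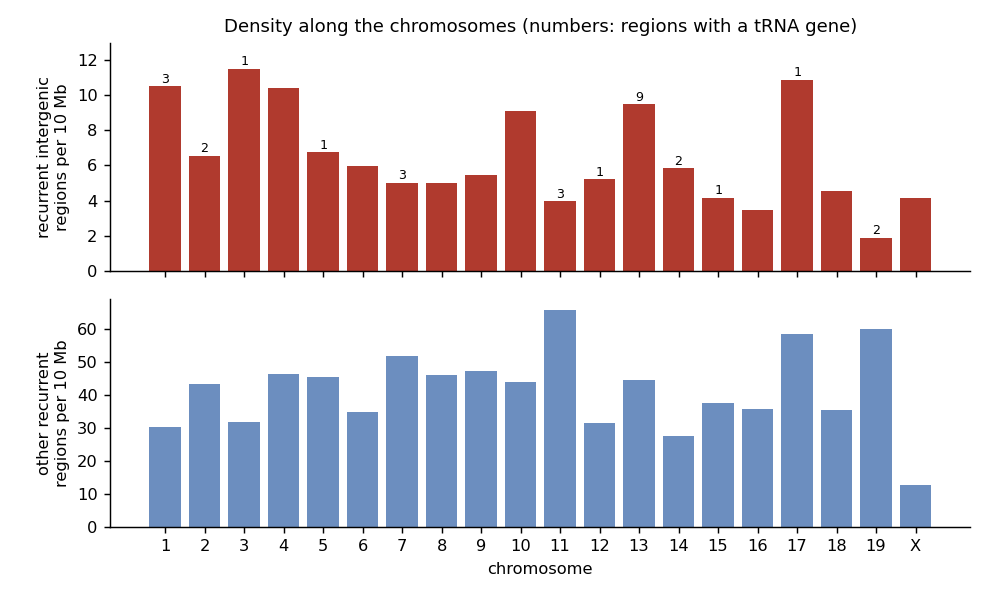
Bars give the number of regions per 10 Mb of sequence on each chromosome, above for the recurrent intergenic regions and below for the other recurrent regions, each with its own scale from 0. Numbers over the upper bars count regions with a tRNA gene, with 9 on chromosome 13. Chromosomes 3, 17, 1 and 4 are the highest above, and 11, 19 and 17 below.

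Many regions stood in clusters, runs of neighbours at most 100 kb apart. There were 279 clusters of 2 or more regions, with 723 regions in them, 41.5%. Of these 98 had 3 or more and 15 had 5 or more. Neighbours were within 10 kb of each other in 135 cases. The largest clusters had 7 regions each, and there were 4 of them.

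The cluster at chr3:3887001-4176200 spanned 289 kb with Gm2077 as the single GENCODE gene in it and Hnf4g, a nuclear receptor, as the nearest coding gene. From 2 to 6 of its 7 regions were marked in most livers, 7 in RD mouse 2 and 0 in HF mouse 3 and RD mouse 3. The cluster at chr10:47627601-47913000 spanned 285 kb near Grik2, a glutamate receptor gene. It had 7 regions marked in HF mice 1 and 2 and in RD mouse 2, 1 in HF mouse 3 and 0 in YD mouse 1. Both were AT-rich, with a median centre GC of 36% and 35.7%. The cluster at chr7:29609001-29761000 spanned 152 kb around Catsperg2, a sperm ion channel gene, with 7 regions marked in SD mouse 1, HF mouse 2 and RD mouse 2 and 1 in SD mouse 3 and HF mouse 3. The cluster at chrX:31142401-31249400 spanned 107 kb with no GENCODE gene in it, beside Spin2f and Btbd35f29. RefSeq places Gm21711, Gm21061 and Gm31556 on 3 of its regions. In every liver 2 or more of its 7 regions were marked, and in HF mouse 2 all 7.

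The regions were wide by merging and their islands were of middle width. The median merged region was 6400 bp wide, with quartiles of 4600 and 8400 bp and a range of 400 to 24200 bp, and all members together covered 11.9 Mb. The mean width of a region's islands over the lists that have one had a median of 2333 bp, with quartiles of 2000 and 2687 bp. In 744 members, 42.7%, no list had an island of 4000 bp. The rule capped the width, so these figures hold only for what it left. The tRNA regions were narrower, with a median island of 1689 bp, and so were the CpG-rich ones, with 1343 bp. Within a library the median island in a member was 1400 bp in YD mouse 3 to 3400 bp in YD mouse 1 and RD mouse 2, and the median over the whole list of the same library was 1200, 2800 and 2800 bp.

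The 3 members with the widest mean islands over the lists had means of 4657, 4471 and 4339 bp. The first of these, chr4:75450601-75464400, was covered over 13200 bp in RD mouse 2 and 10000 bp in CR mouse 3, and over 3000 to 4000 bp in 5 other livers. The region chr7:10233001-10253400, 22.0 kb from the vomeronasal receptor gene Vmn1r66, was covered in 14 livers. It reached 17600 bp in RD mouse 2, 14400 bp in CR mouse 3 and 11800 bp in YD mouse 1, and it had no island in HF mouse 3. The region chr11:121934201-121947800, 104 kb from Ptchd3, was covered over 13000 bp in RD mouse 2 and 12400 bp in CR mouse 3 and had no island in HF mouse 3 and RD mouse 1. It matched itself at 77.9% of bases at a shift of 252 bp and lay 34.7 kb from an assembly gap.

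The diets overlapped in how many of the 1744 regions were marked. In SD mice 76.3%, 41.7% and 31.1% of regions had an island, 49.7% ± 23.7 (SD, n = 3). In CR mice the share was 51.8%, 43.3% and 88.5%, 61.2% ± 24.0 (SD, n = 3). In HF mice it was 66.2%, 77.4% and 18.8%, 54.1% ± 31.1 (SD, n = 3). In YD mice it was 31.9%, 32.4% and 46.6%, 37.0% ± 8.36 (SD, n = 3). In RD mice it was 53.7%, 91.1% and 50.1%, 65.0% ± 22.7 (SD, n = 3). YD was 20.5 percentage points below the mean of the other 12 mice and RD 14.5 above. The pooled SD of single mice within a diet was 23.2 points, which is not the error of such a difference. Without RD mouse 2 the RD difference was 1.42 points, and without CR mouse 3 the CR difference went from 9.79 to -3.87. Without HF mouse 3 the HF difference went from 0.874 to 18.5. With the 7825 top-scoring islands of each list, the difference was 10.45 points in YD, -7.32 in CR and -17.2 in HF, the opposite sign in all 3.

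This share followed the length of the list. Over the 15 libraries the number of islands and the share of members marked had a Pearson r of 0.904 and a Spearman rho of 0.829, and r = 0.843 without CR mouse 3 and RD mouse 2, given as a description. The members held 2.57% of the islands in HF mouse 3 and 5.45% to 8.44% in the other lists. Of the 15 library names 5 contain PATChIP and the other 10, among them all of SD and YD, contain ChIP. Among the 10 ChIP libraries the CR difference rested on CR mouse 3 alone and was 36.6 points, the HF difference rested on HF mouse 1 and was 11.8, YD was 26.6 points below the other 7, and SD and RD differed by -8.40 and 18.7 points. Among the 5 PATChIP libraries, RD mouse 1 was 5.92 points above the other 4, while the CR and HF differences were -2.38 and -1.57 points.

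HF mouse 3 was the library in which the classes parted the most. It marked 28 of 29 tRNA regions and 18 of 21 CpG-rich regions but 13.8% of the 1524 regions of no class, the lowest share of any library. RD mouse 2 marked 20 of 29 and 14 of 21 but 92.9% of those 1524, the highest. Over the 15 libraries the share of the 1524 regions had a Pearson r of 0.371 with the share of the other recurrent regions, whereas the CpG-rich regions had 0.933.

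**Figure D5:**
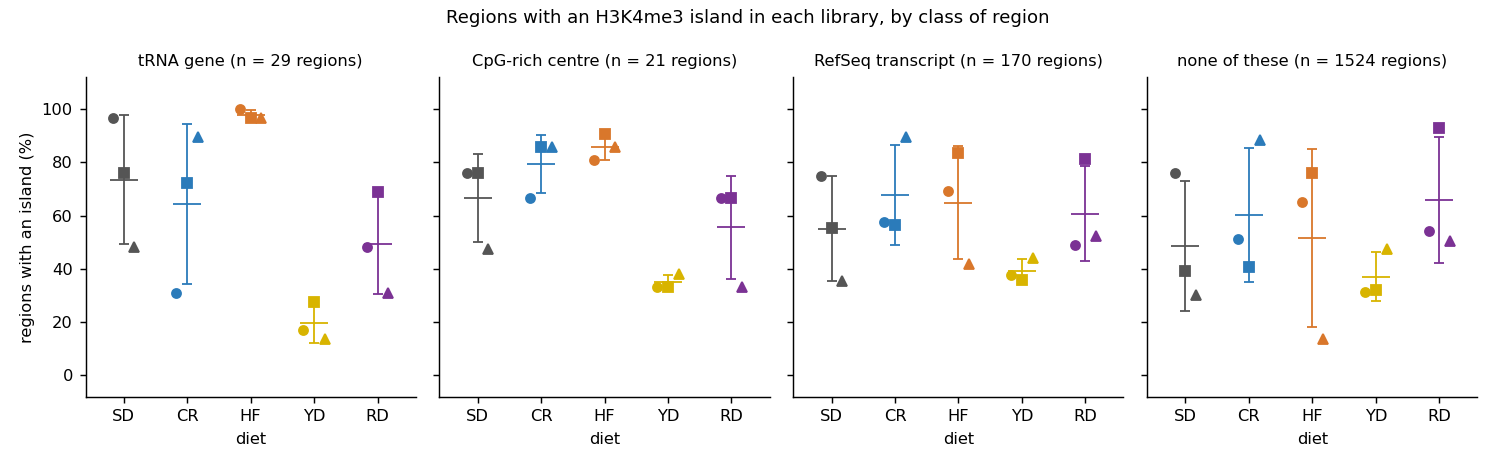
Points are libraries (circle, square and triangle for replicates 1, 2 and 3 of a diet), and the y axis is the percent of regions of a class with an island, in 4 panels for the 29 tRNA, 21 CpG-rich, 170 RefSeq and 1524 remaining regions. Bars are the mean and SD of 3 mice. HF points sit at 96.6% or more for tRNA regions and between 13.8% and 76.1% for the remaining regions, where RD mouse 2 is at 92.9%.

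The test of covered length gave few members. At an exact permutation p under 0.05, with 0.0022 as the smallest p the 455 arrangements can give, 150 members were higher in RD and 2 lower, 8.6% and 0.115%, where 1.79% and 2.45% of all 12041 tested regions were. In CR 51 members were higher and 1 lower, 2.92% and 0.0573%, where 3.78% and 0.0914% of all tested regions were. In HF 55 were higher and 2 lower, 3.15% and 0.115%, where 27.1% and 0.0664% of all were. In YD 8 were higher and 19 lower, 0.459% and 1.09%, where 0.0914% and 16.7% of all were. In SD 15 were higher and 4 lower, 0.86% and 0.229%, where 0.806% and 0.133% of all were. The smallest adjusted p among members was 0.107 in HF, 0.184 in YD, 0.754 in RD and 1 in SD and CR, so that 0 regions passed. Of the 55 in HF 12 were tRNA regions and 5 were CpG-rich, and of the 150 in RD none was either. The bound of 6 lists counts the lists of the tested diet too, so these counts are not independent of the selection.

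These counts hung on single libraries. Without RD mouse 2 the members higher in RD numbered 18, those in CR 130 and those in SD 43, and without RD mouse 3 those in RD numbered 226. Without CR mouse 3 those in CR numbered 20, and without HF mouse 1 those in HF numbered 27. Those in SD were 7 without SD mouse 1 and 30 without SD mouse 2. Those lower in YD were 8, 9 and 6 without YD mouse 1, 2 or 3 and 32 without RD mouse 3. With the same number of top islands from each list 24 members were higher in SD, 11 in CR and 15 in HF, and 2 were lower in YD. The median difference over members was 833 bp in RD and -783 bp in YD, 133 bp in CR, -150 bp in HF and -233 bp in SD. Over all tested regions it was -383, -950, 350, 867 and 16.7 bp.

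Besides the tRNA region on chromosome 3, 3 members among the 5 with the smallest p were higher in RD. The region chr16:67745801-67758400, 4.68 kb from Gm49648 and 124.9 kb from the adhesion gene Cadm2, was covered over 2400, 12000 and 2600 bp in RD mice and 0 to 2000 bp in the others, a difference of 5000 bp. The region chr6:20250201-20257800, 462 kb from the nearest TSS, was covered over 3800, 5200 and 4800 bp in RD mice and 0 to 2800 bp in the others, a difference of 3967 bp. The region chr4:20077601-20081400, 35.5 kb from Ggh, an enzyme that shortens folate polyglutamates, was covered over 1800, 3800 and 2200 bp in RD mice and 0 to 1600 bp in the others, a difference of 2250 bp. In all 3 the RD mice did not overlap the 12 others (exact permutation p = 0.0022, adjusted p = 0.754). The regions were in 8, 7 and 6 lists, and in each case 3 of these were RD lists. Each passed the bound of 6 lists only with its RD islands, so the p and the separation are not independent of the selection.

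Against SD, a member counted as gained when 2 or 3 mice of a diet and none of the SD mice had an island in it, and as lost in the opposite case. There was no test, and the comparisons share the SD mice. Members were in a median of 7 lists and the other recurrent regions in 12. Absence from all 3 mice of a diet depends on that number, so the shares below are not of like sets. In CR 129 were gained and 34 lost, 7.4% and 1.95%, where 2.62% and 0.573% of all recurrent regions were. In HF 118 were gained and 71 lost, 6.77% and 4.07%, where 2.57% and 0.806% of all were. In YD 37 were gained and 232 lost, 2.12% and 13.3%, where 0.648% and 18.9% of all were. In RD 136 were gained and 34 lost, 7.8% and 1.95%, where 1.99% and 7.05% of all were. Of the 232 lost in YD 13 were tRNA regions, out of 29, and no tRNA region was gained in any diet. With the same number of top islands from each list the YD counts turned to 169 gained and 38 lost, those of CR to 50 and 75, those of HF to 9 and 94 and those of RD to 236 and 36.

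Named by the widest mean island among those with islands in 3 mice on one side and 0 on the other, the region chr9:11800001-11813000 was gained in both CR and RD. It lies 165 kb from Gm47037 and 895 kb from Cntn5, a neuronal contactin gene. It was covered over 3600, 2000 and 6800 bp in CR and 800, 12000 and 2800 bp in RD, and also in HF mice 1 and 2 and in YD mouse 3. In HF the region gained was chr2:82906001-82916200, 27.4 kb from the sperm gene Fsip2, with 600, 4400 and 2000 bp. In YD it was chr6:138631001-138641600, 16.9 kb from Igbp1b, with 3800, 1600 and 2400 bp. All were at 0 bp in the 3 SD mice by the rule.

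The regions lost were marked in each SD mouse. In CR this was chr3:3210601-3223200, 285 kb from Hnf4g, with 4000, 1600 and 3400 bp in SD. In HF it was chr14:83629601-83645000, 799 kb from the protocadherin gene Pcdh17, with 5600, 1000 and 1600 bp in SD, and it had no island in YD mice either. In YD it was chr1:141004601-141018600, 492 kb from the potassium channel gene Kcnt2, with 7200, 1800 and 2600 bp in SD. In RD it was chr1:34971601-34981200, 93.9 kb from Plekhb2, with 1800, 2000 and 2400 bp in SD and 5800 bp in YD mouse 1.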

How the data were processed

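PAT-ChIP-seq for H3K4me3 was run on 15 livers, 3 per diet. The authors aligned single 50 bp reads to mm10 with bwa, removed unmapped, duplicate and low-quality (MAPQ under 1) reads and those outside chromosomes 1 to 19 and X with samtools, and called islands with SICER2 (window 200 bp, gap 400 bp, fragment 200 bp, FDR under 0.05). Versions of these tools are not given in the sources used here. Each deposited list holds a chromosome, a start, an end and the SICER2 score the authors' run gave, which is not scaled between libraries, so the score was used only as a rank within its list.

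Here islands were merged with an overlap or touch, and GENCODE M21, RefSeq GRCm38.p6 and the mm10 sequence gave transcripts, tRNA genes and base composition. Composition and motifs were read in the 300 bp at the centre of the part covered in most lists, and uniqueness by 50-mers. For each of the 12041 recurrent regions the bp covered by islands in the 3 mice of a diet was compared with that of the 12 others by a two-sided exact permutation test over 455 arrangements, with Benjamini-Hochberg adjustment. The test was checked on simulated data. The 5 such tests share mice. Samples were grouped by the diet in their labels. The mice came from shared litters and were put on the diets at random, and which litter a mouse came from was not used here. Read depth per library was not used here, and errors are between mice.

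The members, gene lists and markers were chosen with earlier results of these data known. The tRNA, RefSeq and CpG-rich classes, the B box and the RefSeq examples were chosen after values were seen. The regions named by rule were the 6 in most lists by score rank, the 3 farthest from a TSS, the 3 widest, the widest gained and lost per diet, the 5 with the smallest p, of which 1 is not reported here, and the tRNA and CpG-rich regions. Alternatives were 5 or 8 lists, an equal number of top islands, presence or absence in place of covered bp, other cluster gaps, coding TSSs, name forms, a replicate block and leaving out each library. Used were Python 3.11.15, NumPy 2.4.6, pandas 2.3.3, SciPy 1.17.1, Biopython 1.88, pysam 0.24.0 and matplotlib 3.10.9.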

Additional observations from a re-analysis of the deposited data

How the results depend on the processing

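Of 400 values under other settings 359 stayed within 1.5 times (counts) or 1 SD (other values) of the value reported and 41 moved further. For the share of regions marked this SD was 23.2 points, the spread between mice of a diet. Differences in share that changed sign could thus count as having stayed, as in CR (-7.32) and HF (-17.2) with equal top islands. The share of a list's islands was judged by the same 23.2 points though it is another measure, so its label says little. The regions numbered 2740 with 5 or more lists, 814 with 8 or more, 283 with an equal number of top islands, and 1241 to 1691 with 1 library left out. With equal top islands the share of regions marked was 10.45 points higher in YD than in the others, where it was 20.5 lower with all islands, and the tRNA share was -20.7 points in YD. The alternatives for the tRNA regions were chosen after seeing the data. Among ChIP-named libraries CR, there CR mouse 3 alone, was 36.6 points higher, and among PATChIP-named ones the other CR mice differed by -2.38 points. Members at p under 0.05 with equal top islands numbered 24 higher in SD, 11 in CR and 15 in HF and 2 lower in YD, and with presence or absence 27 higher in CR, 24 in HF and 61 in RD and 48 lower in YD. With 1 library left out they were 7 to 43 in SD, 20 to 130 in CR, 27 to 76 in HF, 6 to 32 lower in YD and 18 to 226 in RD. When 3 mice against 0 were required, gained and lost were 40 and 6 in CR, 21 and 10 in HF, 5 and 47 in YD and 55 and 6 in RD. With equal top islands they were 50 and 75 in CR, 169 and 38 in YD, and 9 gained in HF and 236 in RD. The median distance was 136.9 kb to coding TSSs. The cause of these shifts was not tested, beyond fewer islands, mice or regions entering by construction. Island lists limit what can be seen: a short list may miss weak regions, and the read depth behind each list was not used.

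The replicate numbers did not pair the mice: deviations from the diet mean had a mean correlation of -0.0264 for the same number and 0.0154 for different numbers. With the replicate number as a block, permuting within numbers, members called were 13 in SD, 47 in CR, 49 in HF, 21 lower in YD and 106 in RD, all within 1.5 times of the counts without it.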
